A study of Mus musculus with 4 samples.

Results

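The 10 genes described here encode transcription factors that guide blood stem and progenitor cells into the granulocyte, monocyte and dendritic cell lineages, together with a pair of inhibitors of such factors. They are Spi1, the C/EBP family genes Cebpa, Cebpb, Cebpd, Cebpe and Cebpg, the interferon regulatory factor genes Irf8 and Irf4, and the inhibitor genes Id2 and Id1. The genes were chosen by symbol, each symbol was matched to 1 Ensembl identifier in the count tables, and all 10 were listed in every library, out of 42367 genes listed in any library and 37140 listed in all of them. RNA of sorted hematopoietic stem cells (HSCs) from bone marrow of tibiae, femora and humeri of C57Bl6 mice had been sequenced for 2 populations, HSCs with the surface phenotype Lin− cKit+ Sca1+ CD48− CD150+ and HSCs that were CD41low and CD9low (CD41low/CD9low cells in the following), each from Gfi1b WT and Gfi1b KO mice. The paper's results call the first of these populations CD41+/CD9+ HSCs, while its methods name no CD41 or CD9 gate for it. Whether it also held CD41low/CD9low cells is therefore not known here. There was 1 library per genotype and population, so that no ratio within a population has a replicate check.

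KO mice carried the tamoxifen-activated recombinase Rosa-Cre and the Gfi1b fl/fl alleles, and marrow of 5 mice was pooled. Controls labelled WT carried Rosa-Cre and Gfi1b wt/fl by the methods, while the deposited design text speaks of floxed mice with or without the recombinase. Marrow of 10 WT mice was pooled. All mice had received tamoxifen 2 weeks earlier. The sample titles name Gfi1 where the genotype labels name Gfi1b. The ages of the mice are not stated, and the recombinase under the Rosa promoter is not restricted to blood cells. Gfi1b had 9256 counts in WT HSCs, 49910 in KO HSCs, 611 in WT CD41low/CD9low cells and 9741 in KO CD41low/CD9low cells, which gives KO/WT ratios of 6.66 and 10.6. A count over the whole gene does not separate the deleted exons from the others, so these counts cannot check the deletion. The paper reports that expression of the floxed exons was absent in HSCs after deletion.

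PU.1, the product of Spi1, is an Ets-family factor that opens enhancers of myeloid and B lymphoid genes, and its level helps set the choice between macrophage and granulocyte fates. C/EBP proteins are leucine-zipper factors that bind as dimers. C/EBPα starts the granulocyte programme, C/EBPβ takes over when granulocytes are made in an emergency, and C/EBPε completes granule formation. IRF8 and IRF4 bind weakly alone and pair with PU.1 on composite sites, and Id proteins take E proteins out of action by forming dimers that cannot bind DNA.

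Start-site sequence was available in RefSeq (GRCm38.p6) for 6 of the 10 genes (Cebpa, Cebpb, Cebpg, Irf8, Irf4 and Id2). Spi1, Cebpd, Cebpe and Id1 were not matched. The 250 bases upstream of the start are shown for Cebpb, which was lower in KO in both populations, Cebpg, which was nearly level, Irf8 (the first of its 2 listed starts), whose ratios lay on opposite sides of 1, and Id2, which had the lowest ratio. Capitals mark AATC, the core of the Gfi1b recognition sequence, and CCAAT, the box that gave C/EBP its name, on either strand (read as GATT and ATTGG on the other). A GATTGG holds an overlapping match of both. Cebpb is at chr2:167688665-167688914 on the plus strand, Cebpg at chr7:35056567-35056816 on the minus strand, Irf8 at chr8:120736108-120736357 on the plus strand and Id2 at chr12:25096093-25096342 on the minus strand, inside the GENCODE gene.
Cebpb: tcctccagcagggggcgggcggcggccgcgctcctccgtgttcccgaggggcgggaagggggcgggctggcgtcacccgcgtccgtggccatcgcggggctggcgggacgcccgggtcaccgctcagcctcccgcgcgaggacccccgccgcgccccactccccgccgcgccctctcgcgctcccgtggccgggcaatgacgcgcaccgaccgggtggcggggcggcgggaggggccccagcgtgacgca
Cebpg: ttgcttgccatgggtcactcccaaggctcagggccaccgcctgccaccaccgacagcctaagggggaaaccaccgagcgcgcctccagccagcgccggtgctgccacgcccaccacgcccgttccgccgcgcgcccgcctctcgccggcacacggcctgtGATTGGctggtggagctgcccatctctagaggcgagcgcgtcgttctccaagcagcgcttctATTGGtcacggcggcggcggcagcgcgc
Irf8: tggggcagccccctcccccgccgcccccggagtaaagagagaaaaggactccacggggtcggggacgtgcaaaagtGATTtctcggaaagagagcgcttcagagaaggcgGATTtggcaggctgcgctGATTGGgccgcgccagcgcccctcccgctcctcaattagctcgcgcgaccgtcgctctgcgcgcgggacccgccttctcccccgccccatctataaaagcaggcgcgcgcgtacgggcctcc
Id2: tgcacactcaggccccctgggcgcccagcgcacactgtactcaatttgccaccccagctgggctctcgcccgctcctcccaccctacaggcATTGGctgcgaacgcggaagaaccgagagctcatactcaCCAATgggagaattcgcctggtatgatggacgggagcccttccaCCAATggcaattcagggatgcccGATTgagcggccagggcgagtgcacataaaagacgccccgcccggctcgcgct
The Cebpb sequence held neither motif and had a GC content of 81.6%, against 62.8% for Id2. Irf8 held AATC at 3 positions, 122, 140 and 174 bases before its start, and Cebpg and Id2 held it once, 90 and 53 bases before theirs. Among all 32851 promoters in the table, 69.0% held AATC and 33.8% held CCAAT in a window of the same length. Cebpa and Irf4 held neither. The TATA box letters TATAAA (12.4% of all promoters) lay 30, 31 and 26 bases before the starts of Cebpa, Irf8 and Irf4, and GAGGAA, a core of PU.1 sites (23.3% of all promoters), was found in Irf4 alone of the 6. A match of these letters is a description and says nothing on binding by GFI1B or a C/EBP protein.

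The whole genes are given by GENCODE release M21 of GRCm38, the build of the counts (mm10). Cebpb (ENSMUSG00000056501) is a single exon at chr2:167688915-167690418 on the plus strand. Its 1504 bases share 312 with exons of Tmem189 on the opposite strand, and Cebpd (ENSMUSG00000071637, chr16:15887286-15891031, plus strand) shares 562 of 3746 exon bases with Spidr. The library kit kept strand, but the strand setting of the counting is not given in the sources used here, so that reads on the shared bases are uncertain. Tmem189 had 1158 counts in WT HSCs, 1014 in KO HSCs, 269 in WT CD41low/CD9low cells and 496 in KO CD41low/CD9low cells. Irf8 (ENSMUSG00000041515, chr8:120736358-120756694, plus strand) shares no exon base with a counted gene, and neither do the other 7 genes.

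Libraries held 12732079 to 50781007 counts on genes, and a count of 3 corresponds to 0.059 to 0.236 CPM (counts divided by the library total on genes, times 1000000). KO/WT ratios were taken between counts scaled by median-of-ratios size factors of the pair, and each has an exact Clopper-Pearson 95% interval that covers counting error only. Of the HSC markers, 9 of 9 were present in all libraries (Kit at 989 to 1260 CPM), while the lineage depletion markers were present in part. Cd3e, Cd8a and the neutrophil surface gene Ly6g had 0 to 9 counts, whereas Itgam, which encodes CD11b, had 379 to 780 counts and Klrb1c, which encodes NK1.1, had 79 to 636. In bulk RNA, fewer cells of a type and less RNA per cell cannot be told apart.

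**Figure D1:**
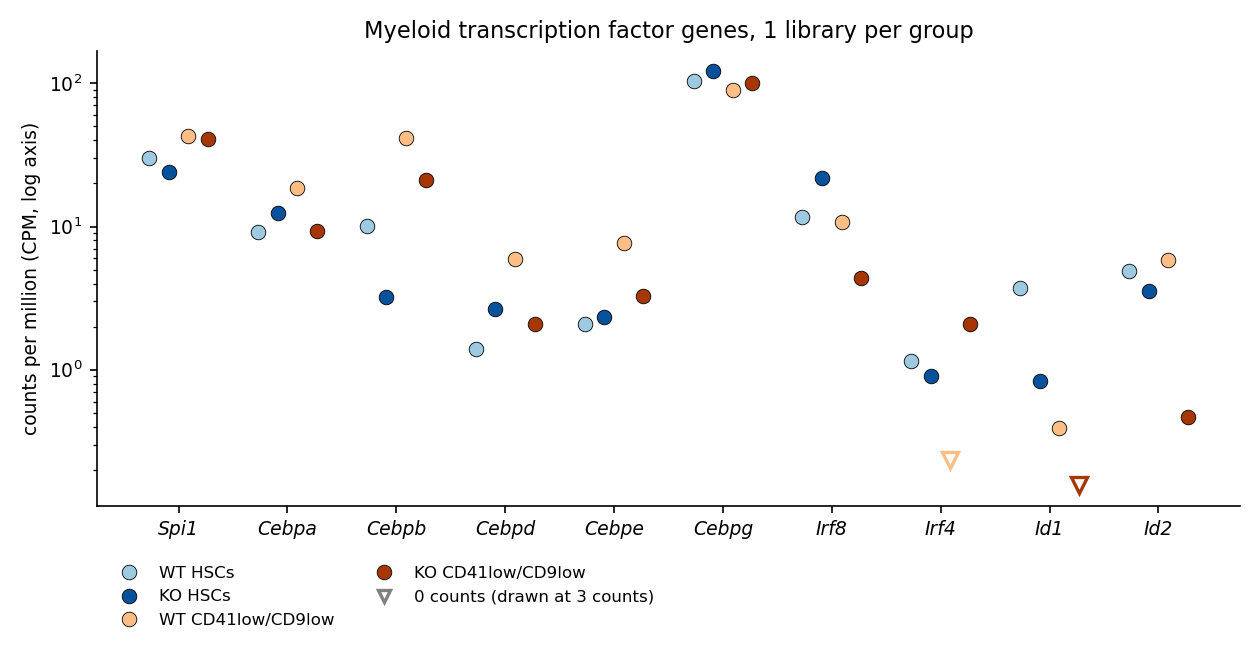
CPM of the 10 genes in the 4 libraries on a log axis, 1 point per library, with open triangles where a library had 0 counts, drawn at the level of 3 counts. Levels are to be compared between libraries of a gene, not between genes, which differ in length. Cebpb was highest in WT CD41low/CD9low cells at 41.6 CPM and lowest in KO HSCs at 3.24 CPM, and Id2 stood at 0.471 CPM in KO CD41low/CD9low cells.

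In HSCs, Cebpb and Id1 were lower in the KO library and Cebpd and Irf8 were higher. In CD41low/CD9low cells, Cebpa, Cebpb, Cebpd, Cebpe, Irf8 and Id2 were lower in the KO library and Irf4 was higher. Cebpb was thus low in the KO library of both populations, while Cebpa, Cebpd and Irf8 lay on opposite sides of a ratio of 1. With the study's cutoffs of 1.5 and 0.6, 2 of 10 genes lay above and 2 below in HSCs, where 14.1% and 10.3% of all 15910 genes with at least 10 counts did. In CD41low/CD9low cells 1 of 9 lay above and 6 of 9 below, where 13.4% and 12.0% of 14844 genes did. The median KO/WT ratio of the genes was 0.962 in HSCs and 0.503 in CD41low/CD9low cells, while the median log2 ratio of all genes with at least 10 counts was 0.00 and 0.01. With at least 50 counts required, 2 of 10 lay above and 2 below in HSCs (all genes 10.7% and 5.95%) and 0 of 8 above and 6 below in CD41low/CD9low cells (all genes 8.14% and 5.83%).

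Spi1 (ENSMUSG00000002111, chr2:91082390-91115756, plus strand) had 1535 counts in WT HSCs and 1009 in KO HSCs, or 30.2 and 24.2 CPM. It had 543 counts in WT and 787 in KO CD41low/CD9low cells, or 42.65 and 41.15 CPM. The Spi1 KO/WT ratio was 0.811 (95% counting interval 0.749 to 0.879) in HSCs and 0.966 (0.865 to 1.08) in the CD41low/CD9low pair. Both CD41low/CD9low libraries lay above both HSC libraries, and the CD41low/CD9low ratio could not be distinguished from 1 at this depth. Scaled for the dependence of the ratios on exon length, the HSC ratio was 0.883.

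Cebpa (ENSMUSG00000034957, chr7:35119293-35121928, plus strand) had 468 counts in WT and 518 in KO HSCs (9.22 and 12.4 CPM) and 236 counts in WT and 178 in KO CD41low/CD9low cells (18.5 and 9.31 CPM). Its KO/WT ratio was 1.37 (1.20 to 1.55) in HSCs and 0.503 (0.412 to 0.613) in the CD41low/CD9low pair. WT CD41low/CD9low cells were the high library, and the other 3 lay within 9.22 to 12.4 CPM.

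Cebpb had 509 counts in WT HSCs and 135 in KO HSCs, or 10.02 and 3.24 CPM. Among CD41low/CD9low cells it had 530 counts in WT and 407 in KO, or 41.6 and 21.3 CPM. The KO/WT ratio was 0.327 (0.269 to 0.397) in HSCs and 0.512 (0.449 to 0.584) in the CD41low/CD9low pair, so the KO library was lower than the WT library of its population in both pairs. The level in KO CD41low/CD9low cells was nevertheless above that in WT HSCs.

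Cebpd, a C/EBP gene induced in acute inflammation, had 71 counts in WT and 110 in KO HSCs (1.398 and 2.64 CPM) and 75 counts in WT and 40 in KO CD41low/CD9low cells (5.89 and 2.09 CPM). The ratios of 1.91 (1.41 to 2.62) and 0.356 (0.236 to 0.529) had intervals that excluded 1 on opposite sides. Cebpe, the late granulocyte factor (ENSMUSG00000052435, chr14:54710360-54712174, minus strand), had 106 counts in WT and 98 in KO HSCs (2.09 and 2.35 CPM) and 97 counts in WT and 63 in KO CD41low/CD9low cells (7.62 and 3.29 CPM). Its ratio was 1.14 (0.858 to 1.52) in HSCs, which could not be distinguished from 1 at this depth, and 0.433 (0.310 to 0.601) in CD41low/CD9low cells.

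Cebpg (ENSMUSG00000056216, chr7:35046422-35056573, minus strand), which encodes a C/EBP protein without an activation domain of its own, had 5229 counts in WT and 5043 in KO HSCs (103 and 121 CPM) and 1141 counts in WT and 1922 in KO CD41low/CD9low cells (89.6 and 100.5 CPM). The ratios were 1.19 (1.15 to 1.24) and 1.12 (1.04 to 1.21), the closest pair of ratios in the family. Per kilobase of exon, Cebpg made up 60.0% of the summed CPM of the 5 C/EBP genes in WT HSCs and 69.5% in KO HSCs. Cebpb took 21.8% and 6.95% of that sum in the same libraries. In CD41low/CD9low cells the order differed, with Cebpb at 47.5% in WT and 36.6% in KO and Cebpg at 27.3% and 46.1%. The family was therefore led by Cebpg in 3 libraries and by Cebpb in WT CD41low/CD9low cells.

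Irf8, which drives monocyte and dendritic cell fate and holds back granulocytes, had 587 counts in WT and 905 in KO HSCs (11.6 and 21.7 CPM) and 136 counts in WT and 84 in KO CD41low/CD9low cells (10.7 and 4.39 CPM). Both WT libraries lay close together, KO HSCs lay above them and KO CD41low/CD9low cells below. The KO/WT ratio was 1.90 (1.71 to 2.12) in HSCs and 0.412 (0.310 to 0.544) in the CD41low/CD9low pair. Irf4 (ENSMUSG00000021356, chr13:30749226-30766976, plus strand), a relative of Irf8 with roles in B cells, plasma cells and dendritic cells, had 58 counts in WT and 38 in KO HSCs (1.14 and 0.911 CPM), a ratio of 0.809 (0.523 to 1.24). It had 0 counts in WT CD41low/CD9low cells, which allows up to 0.236 CPM, and 40 in KO (2.09 CPM). With the WT count set at that floor of 3 counts, the KO/WT ratio of Irf4 was 8.89, and the lower 95% counting limit of the ratio was 6.90.

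Id2 (ENSMUSG00000020644, chr12:25093799-25097140, minus strand), which is needed for natural killer, innate lymphoid and some dendritic cells, had 247 counts in WT and 148 in KO HSCs (4.86 and 3.55 CPM) and 74 counts in WT and 9 in KO CD41low/CD9low cells (5.81 and 0.471 CPM). Its ratio was 0.740 (0.599 to 0.910) in HSCs and 0.0811 (0.0357 to 0.162) in the CD41low/CD9low pair, the lowest of the 10 genes in either population. Id1 (ENSMUSG00000042745, chr2:152736251-152737410, plus strand), a target of BMP signalling, had 189 counts in WT and 35 in KO HSCs (3.72 and 0.84 CPM), a ratio of 0.229 (0.155 to 0.329). In CD41low/CD9low cells it had 5 and 0 counts, too few for a ratio.

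**Figure D2:**
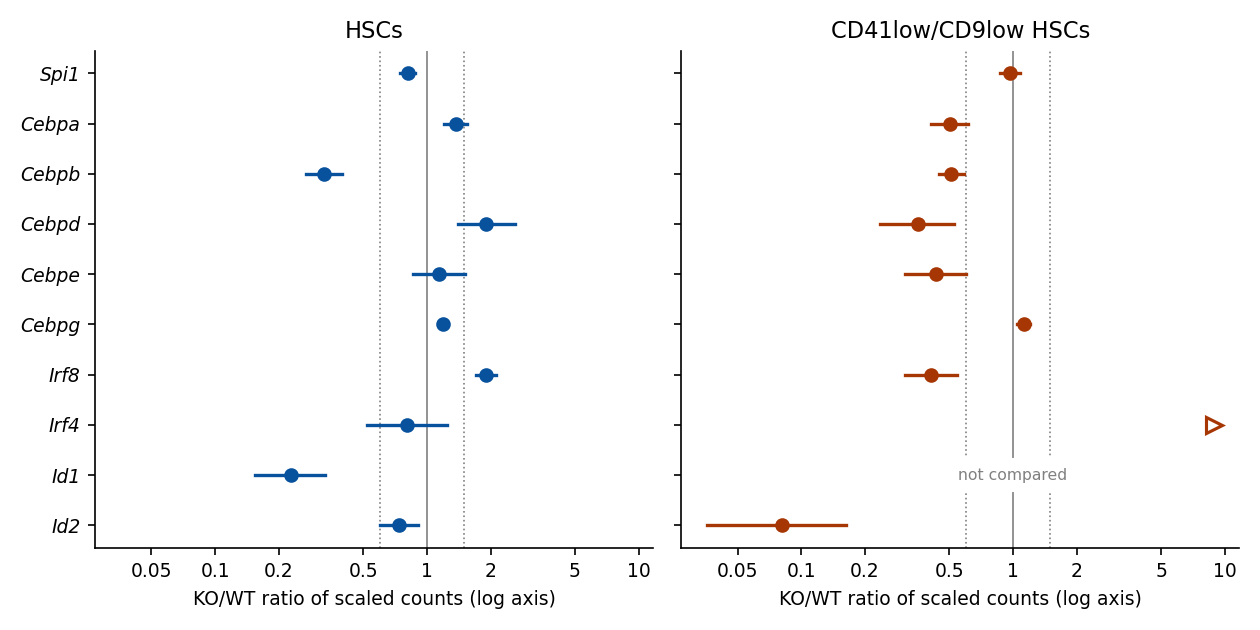
KO/WT ratios of scaled counts on a log axis for the 10 genes, HSCs left and CD41low/CD9low cells right, with 95% counting intervals as bars and dotted lines at 0.6 and 1.5. The open triangle is the ratio of 8.89 for Irf4 against the floor of 3 counts. Cebpb lies left of 0.6 in both panels, whereas Irf8 and Cebpd lie right of 1.5 in HSCs and left of 0.6 in CD41low/CD9low cells.

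Subtracting the HSC value from the CD41low/CD9low value, the log2 KO/WT ratio differed by −2.21 for Irf8 (95% counting interval −2.63 to −1.79), −2.43 for Cebpd (−3.13 to −1.73), −1.44 for Cebpa (−1.78 to −1.11) and −1.40 for Cebpe (−2.00 to −0.79). Id2 had the largest difference, −3.19 (−4.23 to −2.15). Cebpb differed the other way, by 0.65 (0.31 to 0.98), since its ratio was lower in HSCs. The difference was smallest for Cebpg at −0.08 (−0.20 to 0.04) and Spi1 at 0.25 (0.06 to 0.45). These intervals hold no variation between animals or preparations, and with 1 library per group the difference between populations could not be tested.

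Ratios between the counts of a pair of genes within a library need no scaling between libraries. Such ratios were not divided by exon length, so they are to be compared between libraries and do not give the relative level of the genes. They still carry the dependence of the HSC ratios on exon length, after correction for which the HSC KO/WT ratio was 1.78 for Irf8, 0.883 for Spi1, 1.465 for Cebpa and 0.3745 for Cebpb. The count ratio of Cebpa to Cebpb was 0.919 (0.809 to 1.04) in WT HSCs and 3.84 (3.17 to 4.67) in KO HSCs, but 0.445 (0.380 to 0.520) and 0.437 (0.365 to 0.523) in WT and KO CD41low/CD9low cells. In CD41low/CD9low cells both genes were thus lower in the KO library by nearly the same factor, which was not so in HSCs. The ratio of Irf8 to Spi1, the partners on composite sites, was 0.382 (0.347 to 0.421) in WT and 0.897 (0.819 to 0.982) in KO HSCs. Among CD41low/CD9low cells it was 0.250 (0.206 to 0.303) in WT and 0.107 (0.0842 to 0.134) in KO. The ratio of Id2 to Spi1 lay between 0.136 and 0.161 in 3 libraries and at 0.0114 (0.00521 to 0.0218) in KO CD41low/CD9low cells.

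**Figure D3:**
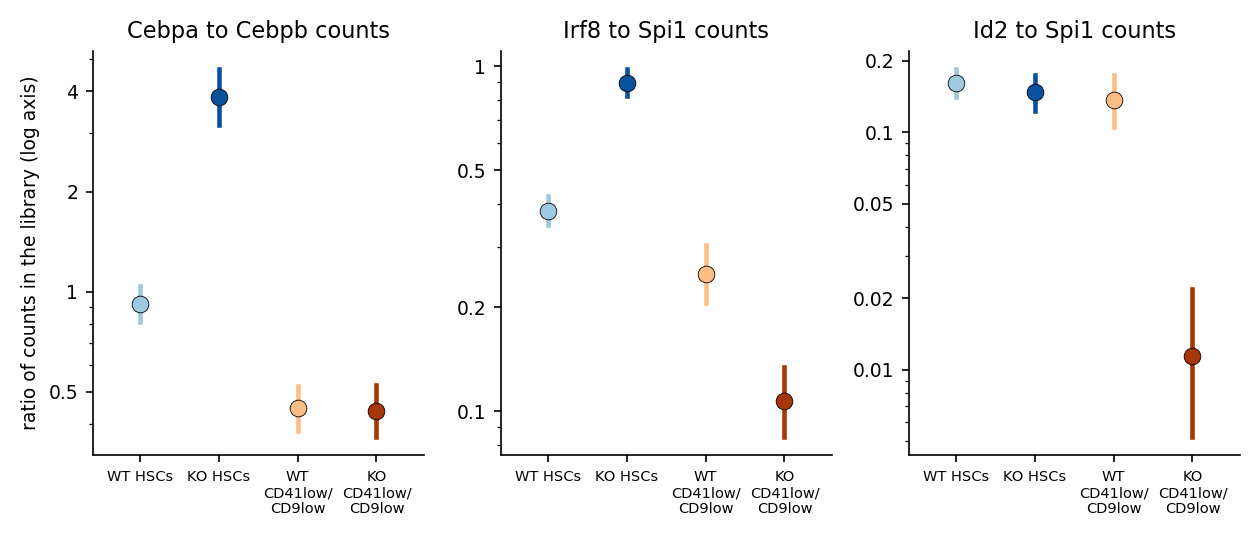
Count ratios between pairs of the genes within each library on log axes, with 95% counting intervals, for Cebpa to Cebpb, Irf8 to Spi1 and Id2 to Spi1. Counts were not divided by exon length. KO HSCs stand above the other 3 libraries in the first 2 panels, at 3.84 and 0.897, and KO CD41low/CD9low cells stand below in the last, at 0.0114.

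A genotype effect common to both populations was fitted over the 4 libraries by the quasi-likelihood method of edgeR, with a term for population and Benjamini-Hochberg adjustment over 14940 genes. The populations stand in for replicates and 1 residual degree of freedom is left. By the methods, marrow was pooled within a genotype before the populations were sorted from it, so they are not independent animals and the p-values measure only the spread between these libraries. Cebpb alone of the 10 genes fell, by 1.28 on the log2 scale (SE 0.27, adjusted p = 0.0297). Over all genes 0.308% were called lower and 0.535% higher in KO. The Cebpb call was lost with DESeq2 (adjusted p = 0.0542) and with at least 50 counts required (adjusted p = 0.0702). It was kept with other size factors in edgeR (adjusted p = 0.0461) and with no filter (adjusted p = 0.000656). For Id2 the estimate was −1.86 (SE 0.79, adjusted p = 0.432) and for Id1 −2.83 (SE 1.39, adjusted p = 0.525). Irf8, whose ratios lay on opposite sides of 1, had an estimate of −0.11 (SE 0.42, adjusted p = 0.986).

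Between the populations, in the same fit, Cebpb was higher in CD41low/CD9low cells by 2.31 on the log2 scale (SE 0.27, adjusted p = 1.9e-05), and this call was kept under every alternative run. Spi1 was higher by 0.57 (SE 0.20, adjusted p = 0.0495) and Irf8 had an estimate of −1.26 (SE 0.42, adjusted p = 0.0443). For Irf8 the WT libraries were close, at 11.6 CPM in HSCs and 10.7 CPM in CD41low/CD9low cells. The difference lay in the KO libraries, at 21.7 and 4.39 CPM, so the Irf8 estimate is not a difference shared by both genotypes. The Spi1 call was lost with DESeq2, other size factors and no filter (adjusted p = 0.132, 0.0521 and 0.0537), and the Irf8 call with DESeq2, other size factors and at least 50 counts (adjusted p = 0.0862, 0.059 and 0.0758). Id1 missed the threshold with an estimate of −4.12 (adjusted p = 0.0551), and passed it with DESeq2 (adjusted p = 0.0349) and with no filter (adjusted p = 0.0256). Over all genes 8.24% were called higher and 12.6% lower in CD41low/CD9low cells. The populations were counted on different annotation releases and differed in depth, and these cannot be told apart from the population.

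Per kilobase of exon the order of levels was Cebpg, Spi1, Cebpb, Cebpa, Id1, Id2, Cebpe, Irf8, Cebpd and Irf4 in WT HSCs. Neighbours whose counting intervals did not separate them were Cebpa and Id1, Id2 and Cebpe, and Cebpe and Irf8. In KO HSCs Cebpa and Irf8 stood above Cebpb. In WT CD41low/CD9low cells Cebpb led with 27.7 CPM per kilobase, 1.74 times Cebpg (1.56 to 1.93), and in KO CD41low/CD9low cells Cebpg, Spi1 and Cebpb led, the last 2 of which were not separated.

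Genes known to depend on PU.1 and C/EBP in granulocytes and monocytes were lower in KO CD41low/CD9low cells, 13 of 19 below the cutoff and 0 above, with a median KO/WT ratio of 0.433. Of all genes 12.0% lay below and 13.4% above. The lowest were Fcnb at 0.0213 (0.00572 to 0.056), from 125 to 4 counts, and Ctsg at 0.0892 (0.069 to 0.114), from 553 to 74. Mpo, the myeloperoxidase of azurophil granules, was at 121 CPM in WT and 20.5 CPM in KO. The highest ratios were those of the cytokine receptor genes Csf2rb (1.23) and Csf2ra (1.12). In HSCs 3 of 19 lay above and 3 below (all genes 14.1% and 10.3%), with a median of 1.13. After the exon-length correction 2 lay below there. Mpo was at 174 CPM in WT and 258 CPM in KO HSCs. Cebpe is both 1 of the 19 and 1 of the 10 factors. Of the 19, Prtn3, the proteinase of the same granules, fell across both populations in the 4-library fit, by 0.70 on the log2 scale (SE 0.16, adjusted p = 0.0488). That value is close to the threshold, and the alternative fits are not given for Prtn3.

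Neutrophil granule genes, which mark maturing granulocytes, were lower beside these factors in KO CD41low/CD9low cells, where 10 of 10 lay below the cutoff with a median ratio of 0.222. Over all genes 12.0% lay below there. The summed level of the granule genes was 921 CPM in the WT library and 216.1 in the KO library, against 130.5 CPM in WT and 150.7 CPM in KO HSCs, where 0 of 10 lay past either cutoff. Over all genes in HSCs 14.1% lay above and 10.3% below. After the exon-length correction 1 of the 10 lay above in HSCs. S100a9, a calprotectin subunit, was at 363 CPM in WT and 94.6 CPM in KO CD41low/CD9low cells. The WT CD41low/CD9low library was thus the highest of the 4 for these markers as it was for Cebpa, Cebpb, Cebpd and Cebpe. Lineage depletion with antibodies to Gr1 and CD11b preceded the sort, and Ly6g had 2 and 6 counts in the WT and KO CD41low/CD9low libraries. Itgam, the CD11b gene, had 431 and 387 counts there (33.9 and 20.2 CPM), against 15.4 CPM in WT and 9.09 CPM in KO HSCs, so that the WT CD41low/CD9low library was highest for it too. The part of granulocyte RNA in the ratios of the factors was not tested.

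Genes of monocytes and dendritic cells downstream of Irf8 lay on the same side as Irf8 in part. In HSCs 5 of 14 were above and 1 below the cutoffs (all genes 14.1% and 10.3%), with a median of 1.12. After the exon-length correction 4 were above. Siglech, of plasmacytoid dendritic cells, had 20 counts in WT and 94 in KO HSCs, a ratio of 5.80 (3.55 to 9.93). Clec9a, of conventional dendritic cells, had 152 and 553, a ratio of 4.49 (3.75 to 5.41). Other dendritic cell genes of the list did not share these ratios. Bst2 was nearly level in HSCs at 1.08 (1.01 to 1.15). Xcr1 had 3 counts in WT and 0 in KO HSCs and Batf3 had 0 in both, too few for a ratio. Ccr2 and Cx3cr1, monocyte chemokine receptor genes, had ratios of 2.35 and 2.11. Klf4 was the gene below, at 0.254 (0.228 to 0.283). Of the 14 ratios, 9 were above 1 and 5 below. Among those below 1 were also Cd74 at 0.708 (0.647 to 0.774), Ciita at 0.747 and Cst3 at 0.822. In CD41low/CD9low cells 1 of 12 was above and 7 below (all genes 13.4% and 12.0%), with a median of 0.544. Among those below were Mpeg1 at 0.241, Ccr2 at 0.338 and the cytokine receptor gene Flt3 at 0.398. The gene above was Clec9a, from 1 to 18 counts, a ratio of 12.0 (1.89 to 500). Xcr1 had 20 counts in WT and 0 in KO CD41low/CD9low cells and was among the 7 below. In the 4-library fit Zeb2, a repressor that works with Irf8 in dendritic cells, rose by 0.68 (SE 0.15, adjusted p = 0.0352) and Klf4 fell by 1.54 (SE 0.34, adjusted p = 0.0367). Values of the alternative fits, in some of which the Cebpb call was lost, are not given for these genes.

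Immediate-early genes, which respond within minutes to signals, were lower beside Cebpb and Id1 in KO HSCs. All 15 of 15 listed genes were below the cutoff there, with a median ratio of 0.305 and a summed level of 5624 CPM in WT and 1997 CPM in KO. Over all genes 10.3% were below in HSCs. After the exon-length correction 13 of the 15 were below, without Jund (0.641) and Btg2 (0.643). Fos was at 1320 and 313 CPM in WT and KO HSCs, and Atf3 had the lowest ratio, 0.113. Among CD41low/CD9low cells 3 of 13 were below and 0 above (all genes 12.0% and 13.4%), with a median of 0.804. Summed levels there were 744.9 CPM in WT and 729 CPM in KO. There 9 of the 13 ratios were below 1. In the 4-library fit 5 of the 15 fell (Nr4a1, Btg2, Fos, Junb and Zfp36), with Nr4a1 falling by 2.10 (SE 0.22, adjusted p = 5.54e-05). Over all genes 0.308% were called lower in that fit. The part of this list in the HSC ratios of Cebpb and Id1 was not tested.

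**Figure D4:**
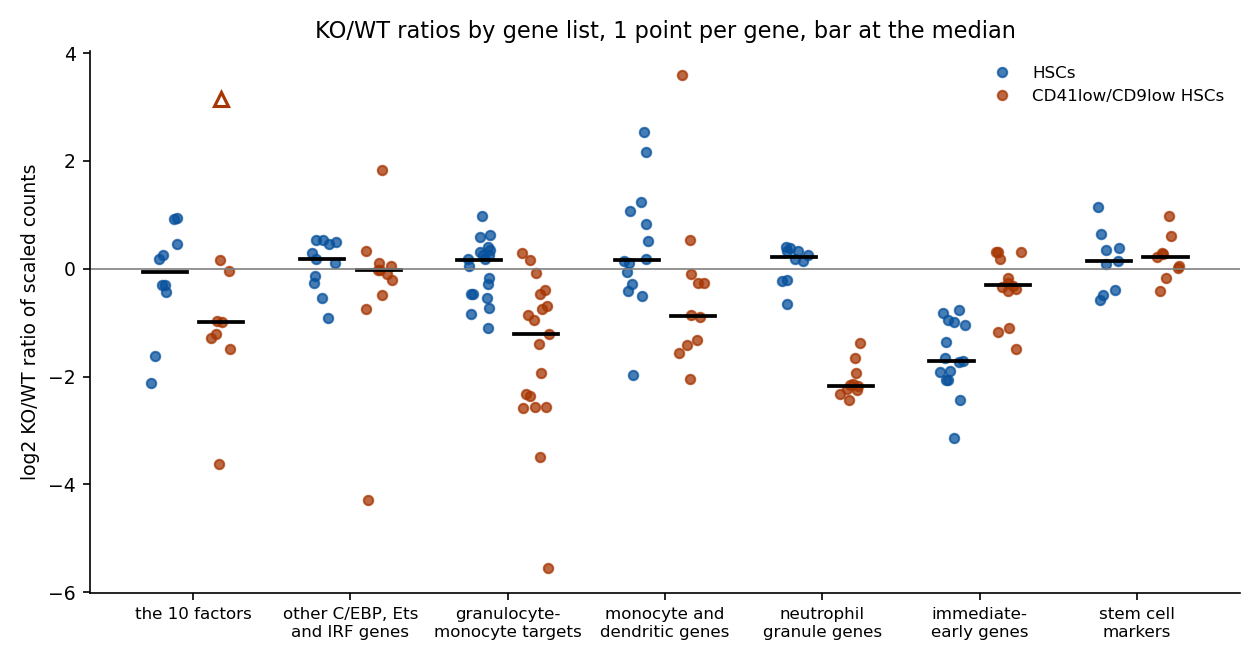
Log2 KO/WT ratios of scaled counts for the 10 factors and 6 other gene lists in HSCs and CD41low/CD9low cells, with 1 point per gene and a bar at the median ratio. The open triangle is Irf4 against the floor of 3 counts, and other genes with 0 counts in 1 library are not drawn. All 10 neutrophil granule genes lie below 0 in CD41low/CD9low cells and all 15 immediate-early genes lie below 0 in HSCs.

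Among 11 other C/EBP, Ets and IRF genes, 0 lay above and 1 below in HSCs, with a median of 1.13, where 14.1% and 10.3% of all genes did. After the exon-length correction 3 lay above in HSCs. In the CD41low/CD9low pair 1 lay above and 2 below, with a median of 0.983, where 13.4% and 12.0% of all genes did. Irf5, an activator of inflammatory cytokine genes in macrophages, was below the cutoff in both, at 0.530 (0.475 to 0.591) and 0.598 (0.526 to 0.680). Spic, the PU.1 relative of red pulp macrophages, was above in CD41low/CD9low cells at 3.57 (2.37 to 5.56), from 28 to 150 counts, and at 1.45 (1.20 to 1.75) in HSCs. Spib, the PU.1 relative of B cells and plasmacytoid dendritic cells, had 13 and 1 counts in WT and KO CD41low/CD9low cells, a ratio of 0.0513 (0.00121 to 0.341). None of the 11 passed the 4-library test of genotype, in which the lowest adjusted p was that of Irf5 (0.125).

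The E protein genes that Id proteins act on, Tcf3, Tcf4 and Tcf12, had KO/WT ratios of 1.06, 1.27 and 1.30 in HSCs and 1.01, 0.979 and 0.826 in CD41low/CD9low cells. None of the 3 lay past a cutoff where Id1 (HSCs) and Id2 (CD41low/CD9low cells) did. Over all genes 14.1% lay above and 10.3% below in HSCs, and 13.4% and 12.0% in CD41low/CD9low cells. With such shares, a lack of calls among 3 genes is not unusual. Id3 had 29 counts in WT and 16 in KO HSCs and 0 counts in WT and 5 in KO CD41low/CD9low cells, and Id4 had 16 and 3 and then 0 and 0. Id4 was the gene of the 6 in this list below the cutoff in HSCs, at 0.231 (0.0432 to 0.808), where 10.3% of all genes were below.

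Likeness to other genes was measured as the Euclidean distance between centred log2 CPM profiles over the 4 libraries, among 9839 or 9840 protein-coding genes with at least 100 counts in each. Spi1 was closest to Rxrb (0.029), Nme4 (0.029) and Tmem242 (0.032), and 2653 genes lay within 0.5 of it, so its pattern was common. Irf8, at 84 counts in its lowest library, had 3 genes within 0.5, Zfp119a (0.276), Zfp949 (0.356) and Gulp1 (0.452). Id2, at 9 counts in its lowest library, had 0 genes within 0.5. Nearest among the genes compared were the azurophil granule genes Elane (1.02) and Mpo (1.29), followed by Spdl1 (1.36). The minimum of 100 counts left out genes that fell to low counts in KO CD41low/CD9low cells, such as Ctsg (553 counts in WT, 74 in KO). The lack of genes within 0.5 therefore does not show that the Id2 pattern was rare.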

How the data were processed

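RNA-seq of sorted HSCs and of CD41low/CD9low cells from WT and KO mice was analysed from the deposited counts of reads per Ensembl gene (unit: counts, not normalized), 1 library per group. The authors aligned reads to mm10 with TopHat2 2.0.10, processed them with SAMtools, counted them with HTSeq and tested with DESeq, per the labels and methods. The annotation release and the version and settings of HTSeq are not given in the sources used here, and the 2 populations were counted on different releases. Lines for reads on no feature, ambiguous or not unique reads were left out of totals and amounted to 60.1 to 105.3, 0.44 to 0.84 and 96.2 to 121.6 reads per 100 gene counts. Depth was 12732079 to 50781007 counts, and intervals and floors (3 counts) cover counting error only.

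CPM, KO/WT ratios (median-of-ratios factors per pair, cutoffs 1.5 and 0.6, genes with at least 10 counts in 1 library), and within-library ratios were computed in Python 3.11.15. The only test was edgeR 4.0.16 quasi-likelihood (R 4.3.3, TMM, genes with at least 10 counts in 2 libraries, adjusted p under 0.05), tested on simulated data. DESeq2 1.42.0, other scaling, other count minimums, 2-fold cutoffs and an exon-length correction (running median of 500 genes) were alternatives. The genes, lists and rules were chosen with earlier results of these data known, as was the list of immediate-early genes, which was added last, and the within-library pairs were chosen after values were seen. All 10 factors were named. Of other lists, the 2 highest and 2 lowest ratios with at least 50 counts, genes needed to check a label and 3 genes nearest in pattern to Spi1, Irf8 and Id2 (at least 100 counts in each library, 0.5 added) were named by rule, and other genes were chosen after their values were seen. Lists for lineage, B lymphoid, erythroid and megakaryocyte markers were computed too. The list of other C/EBP, Ets and IRF genes is given without 1 gene that is not reported here.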

Additional observations from a re-analysis of the deposited data

Results flagged for a closer look

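KO/WT ratios on opposite sides of 1 in the populations, each with a counting interval that excluded 1, were found for 3 of the 10 genes. Cebpa had a ratio of 1.366 in HSCs and 0.5028 in CD41low/CD9low cells. Cebpd had 1.912 and 0.3556, and Irf8 had 1.903 and 0.4118. With 1 library per group the differences were not tested. The share of all genes with such a pattern was not counted, so these 3 of 10 cannot be set against it.

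Reads outside the gene counts differed between libraries. KO HSCs had 105.3 reads on no feature for every 100 gene counts, against 80.0 in WT HSCs, 62.0 in WT CD41low/CD9low cells and 60.1 in KO CD41low/CD9low cells.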

How the results depend on the processing

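Scaling by TMM, by total count or over all 4 libraries moved 0 of 10 ratios in HSCs and 0 of 8 in CD41low/CD9low cells beyond their counting intervals, and the exon-length correction moved 1 (Spi1 in HSCs, 0.883), with 0 changes of side of a cutoff or of 1. Counts of other lists did change with this correction. In HSCs immediate-early genes went from 15 to 13 below, and other C/EBP, Ets and IRF genes from 0 to 3 above. Erythroid markers went from 3 to 2 below and megakaryocyte markers from 2 to 3 above in HSCs. In CD41low/CD9low cells megakaryocyte markers went from 3 to 2 above and from 0 to 1 below. The number of all genes called for genotype was 126 with the filter used, 420 with no filter and 69 with at least 50 counts in 2 libraries. For genes outside the 10, calls of the 4-library fit are given for the filter used alone. With 2-fold cutoffs, 0 of the 10 genes lay above in HSCs and 4 instead of 6 lay below in CD41low/CD9low cells, without Cebpa (0.503) and Cebpb (0.512). With at least 50 counts in 1 library 0 lay above in CD41low/CD9low cells. Leaving out a library was not possible, since 3 libraries leave no residual degree of freedom. No paired analysis was possible because the labels give no replicate numbers and each group has 1 library. Depth limits Id1, Id2 and Irf4 in CD41low/CD9low cells, at 0 to 74 counts.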

Other observations

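Markers of other lineages were at these levels. For comparison, 14.1% of all genes lay above and 10.3% below the cutoffs in HSCs, and 13.4% and 12.0% in CD41low/CD9low cells. B lymphoid markers summed to 23.3 CPM in WT and 18.4 CPM in KO HSCs, and to 31.3 CPM in WT and 28.7 CPM in KO CD41low/CD9low cells, mostly Cd79b. Their median KO/WT ratio in HSCs was 0.456 (3 of 5 below the cutoff, 0 above), with 34 counts in WT and 1 in KO for Cd79a, 20 and 3 for Ebf1 and 6 and 2 for Pax5. Among the CD41low/CD9low libraries 1 of the 8 genes had 10 counts or more, and Cd79a, Ebf1 and Pax5 were at 0 in both libraries. Erythroid markers had a median KO/WT ratio of 0.703 in HSCs (3 of 8 below the cutoff, 1 above) and 0.265 in CD41low/CD9low cells (5 of 8 below, 1 above). Car1 had 55 and 0 counts in WT and KO CD41low/CD9low cells. Megakaryocyte markers had medians of 1.25 (2 of 8 above, 0 below) and 1.14 (3 of 8 above, 0 below), and Itgb3, an integrin subunit of platelets, rose across both populations by 1.59 on the log2 scale (SE 0.15, adjusted p = 1.45e-05 by edgeR's quasi-likelihood test). Of lineage depletion markers, 3 of 7 were below the cutoff in HSCs and 3 of 6 in CD41low/CD9low cells, where 1 was above.

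Gfi1, the paralog of Gfi1b, had 567 counts in WT and 4394 in KO HSCs and 413 counts in WT and 2643 in KO CD41low/CD9low cells, and rose across both populations by 2.68 (SE 0.22, adjusted p = 5.27e-06 by the same test).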
